A study of Homo sapiens with 118 samples.

Results

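HepaRG, a human liver cell line, was exposed to vorinostat, and its highest concentration, 23.5 µM (C5), was compared with its lowest, 0.405 µM (C1). The comparison was chosen by the group labels and used 6 of the 118 libraries of the series, 3 per concentration. Cryopreserved differentiated cells were plated, kept for 7 days, and exposed for 72 h to vorinostat in medium that was renewed daily. Replicates 1, 2 and 3 of each concentration came from 3 batches of HepaRG cells. The 9 libraries at the intermediate concentrations, C2 (1.21 µM), C3 (3.64 µM) and C4 (10.9 µM), shared the same fit. Solvent-control libraries were not used here, so C1 was the reference and a change that was already complete at C1 could not be seen. The labels name no separate cultures within a batch.

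Histone deacetylases remove acetyl groups from lysines of histones and other proteins, and vorinostat is a hydroxamate that binds the zinc ion in their catalytic site. Histone acetylation loosens the contact between histones and DNA and is bound by bromodomain proteins that take part in transcription. HepaRG cells derive from a bipotent liver progenitor and give hepatocyte-like and biliary-like cells when differentiated. Expression was measured with TempO-Seq, in which detector probes that hybridize next to each other on a transcript are ligated, amplified and sequenced. A row of the count table is a probe, called a feature here, and its number is given where a gene has several.

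The total count was 1785295, 4134455 and 3196964 in the C1 libraries and 1061359, 1879287 and 1516130 in the C5 libraries. Replicates of C1 correlated at 0.963 to 0.968 in log2 CPM, where CPM is a count divided by the TMM-scaled size of its library, those of C5 at 0.908 to 0.926, and C1 with C5 libraries at 0.735 to 0.745. No replicates were copies of each other, since the counts of every pair differed by more than sampling noise (chi-square of 3.77 to 7.46 per degree of freedom). The cell type is labeled as liver progenitor cells, although the cells were plated as differentiated ones. Hepatocyte markers were present at C1, where the 11 marker features summed to between 36886 and 45711 CPM per library, and at C5 the sum was between 3761 and 7074 CPM. Of the 7 lymphocyte features, 5 had at most 3 counts in each of the 6 libraries, as had 9 of 12 endothelial and 6 of 9 macrophage features. Stellate cell features summed to 181 to 246 CPM at C1 and 145 to 171 CPM at C5, and cholangiocyte features to 65.5 to 78.8 CPM and 87.9 to 104.8 CPM. Macrophage features summed to 36.0 to 41.9 CPM at C1 and 17.0 to 35.1 CPM at C5, endothelial ones to 6.89 to 12.5 CPM and 2.61 to 9.94 CPM, and enterocyte ones, 4 of 6 with at most 3 counts per library, to 12.1 to 23.4 CPM and 0 to 3.26 CPM. Lymphocyte features summed to 9.00 to 16.1 CPM at C1 and 0 to 6.38 CPM at C5, and the 1 feature tested, CD3D, was called lower (log2 change -3.65). CD163, VSIG4, CD5L and TYROBP of the macrophage list had no count. The part of these cells in the results was not tested. In lysates of whole cultures, fewer cells of a type and less RNA per cell cannot be told apart.

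Of 11631 features tested, 5529 (47.5%) differed between C5 and C1. The threshold for a call was an adjusted p of 0.05 together with a fold change of 1.5 or more. The number called higher was 2636 (22.7%), and the number called lower was 2893 (24.9%). The counts given for gene lists are read against these shares. The change had the same sign in each of the 3 batches for 2559 of the former (22% of the features tested) and 2868 of the latter (24.7%). The median log2 change over all features tested was -0.0013, so levels are given relative to a scaled library in which rises and falls balanced. The CPM values of the groups did not overlap in 6780 features (58.3%). No count was found in any C1 library for 17 of the features called higher, and no count in any C5 library for 77 of those called lower. These numbers cannot be compared directly, since in each batch the C5 library held fewer counts than the C1 library.

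**Figure D1:**
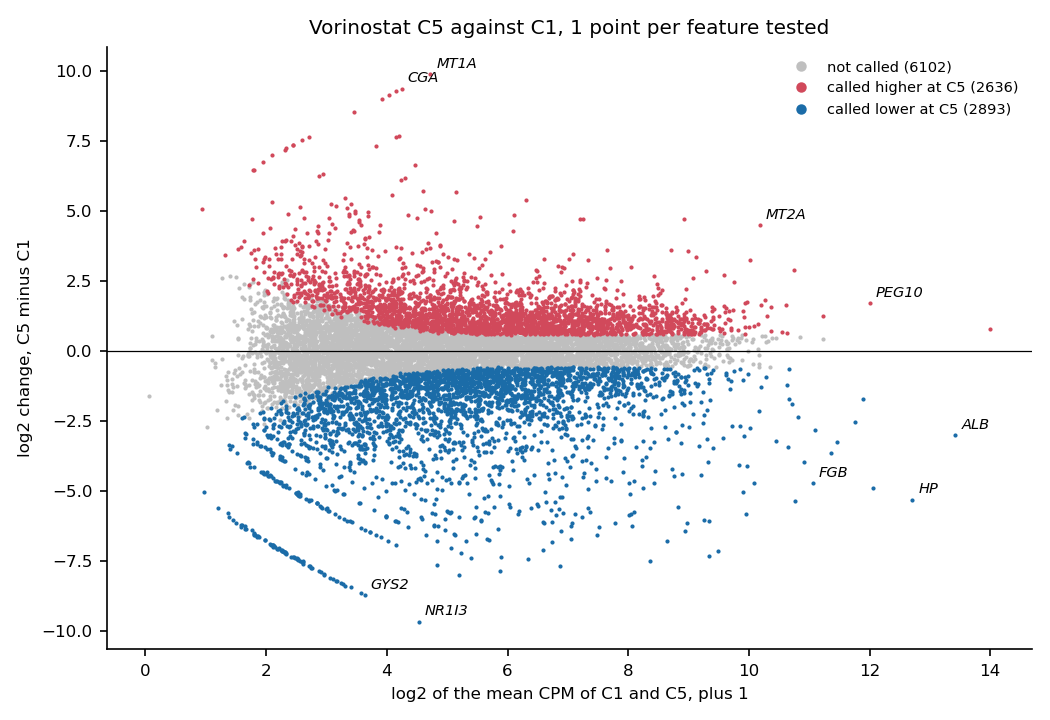
Each point is a feature tested, with the log2 of its mean CPM over C1 and C5 plus 1 on the horizontal axis and its fitted log2 change, C5 minus C1, on the vertical axis. Red points (2636) were called higher at C5, blue points (2893) lower and gray points (6102) neither, and the diagonal rows of points at the left are features with no or few counts in the lower group, whose fitted change depends on the prior count.

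MT1A, a metallothionein, ranked first among the rises by fitted change. Metallothioneins are small cysteine-rich proteins that bind zinc and copper, and their genes are activated by the zinc-sensing factor MTF1 at metal response elements. Feature MT1A_4325 had 0 counts in all C1 libraries and 25.5, 60.7 and 65.9 CPM in the C5 libraries, at least 43.9-fold higher (adjusted p = 2.55e-10). That bound and those below set each library of the lower group at 3 counts. MT2A was at 95.9, 70.1 and 131 CPM at C1 and 2160.5, 2312 and 2190.4 CPM at C5. Every C5 library was far above every C1 library, and the fitted log2 change was 4.49 (SE 0.20, adjusted p = 1.71e-18). MT1X rose from 3.45, 1.04 and 0.321 CPM to 46.5, 38.2 and 52.8 CPM. MT1M rose from 26.4, 17.7 and 28.3 CPM to 209.7, 211 and 278 CPM, and MT1E from 64.9, 44.4 and 47.9 CPM to 189, 246 and 279 CPM. In all 5 features the groups were separate. Features for MT1B, MT1G and MT1H had 0 counts in all 6 libraries, which allows up to 3 counts per library, so no change could be measured for them. Whether these probes read their targets was not tested. MT1F had 0 or 1 count per library at C1 and 1 to 5 at C5 and was not tested. Genes of this family are near-identical in sequence, and how far a probe also reads a relative is not known here. MTF1 and SLC30A1 were chosen after their values were seen. MTF1 rose from 0.574, 1.56 and 4.18 CPM to 10.9, 11.0 and 19.6 CPM (adjusted p = 0.002). The zinc exporter SLC30A1, another MTF1 target, rose by 1.25 on the log2 scale. The manganese exporter SLC30A10 fell by 4.26, from 109.7 ± 18.0 to 5.53 ± 1.77 CPM (SD over 3 libraries). In the whole list of metallothionein and zinc genes, 7 of 10 features tested were called higher and 2 lower, of 21 on the panel. Of all features tested, 22.7% were called higher and 24.9% lower. At most 3 counts in each of the 6 libraries were found for 8 of the 21. A feature silent at C1, such as MT1A_4325, is tested only by being counted at the higher concentrations, so the counts of this list are a description.

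The 250 bases before the start of the gene are shown for MT2A and MT1X, which rose, and for their relative MT1H, which had no count (RefSeq, GRCh38.p14, 5′ to 3′ on the plus strand of chromosome 16). Capitals mark TGCACNC or TGCGCNC on either strand, letters of the core of the metal response element.
MT2A, chr16:56608334-56608583: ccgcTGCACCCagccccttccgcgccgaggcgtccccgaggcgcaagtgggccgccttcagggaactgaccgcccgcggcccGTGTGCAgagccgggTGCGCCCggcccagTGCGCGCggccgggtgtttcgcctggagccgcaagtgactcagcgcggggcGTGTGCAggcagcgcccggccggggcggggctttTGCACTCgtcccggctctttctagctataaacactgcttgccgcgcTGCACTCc
MT1X, chr16:56682220-56682469: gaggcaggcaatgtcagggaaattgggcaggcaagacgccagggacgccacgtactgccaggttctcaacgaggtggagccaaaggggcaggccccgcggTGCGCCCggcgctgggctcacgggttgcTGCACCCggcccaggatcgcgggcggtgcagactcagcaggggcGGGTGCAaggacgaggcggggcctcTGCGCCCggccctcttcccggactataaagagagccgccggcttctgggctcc
MT1H, chr16:56669564-56669813: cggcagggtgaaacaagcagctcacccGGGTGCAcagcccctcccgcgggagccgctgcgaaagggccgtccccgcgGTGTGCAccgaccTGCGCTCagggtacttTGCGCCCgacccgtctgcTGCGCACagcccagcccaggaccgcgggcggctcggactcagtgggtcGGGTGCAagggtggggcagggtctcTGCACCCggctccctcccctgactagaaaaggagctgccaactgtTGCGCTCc
MT2A held 7 such matches, MT1X 4 and MT1H 8. Of 34943 promoters of the same length in the table, 24.8% held at least 1 match, 0.369% at least 4 and 0.0315% at least 7. Of the sequences shown, that of MT1H held the most matches, and its feature had no count at either concentration. Of 10 metallothionein symbols on the panel 4 matched the promoter table. Not all of these 4 are shown, so the sequences given are a choice among them. A match is a description of the letters and does not show that a factor binds.

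**Figure D2:**
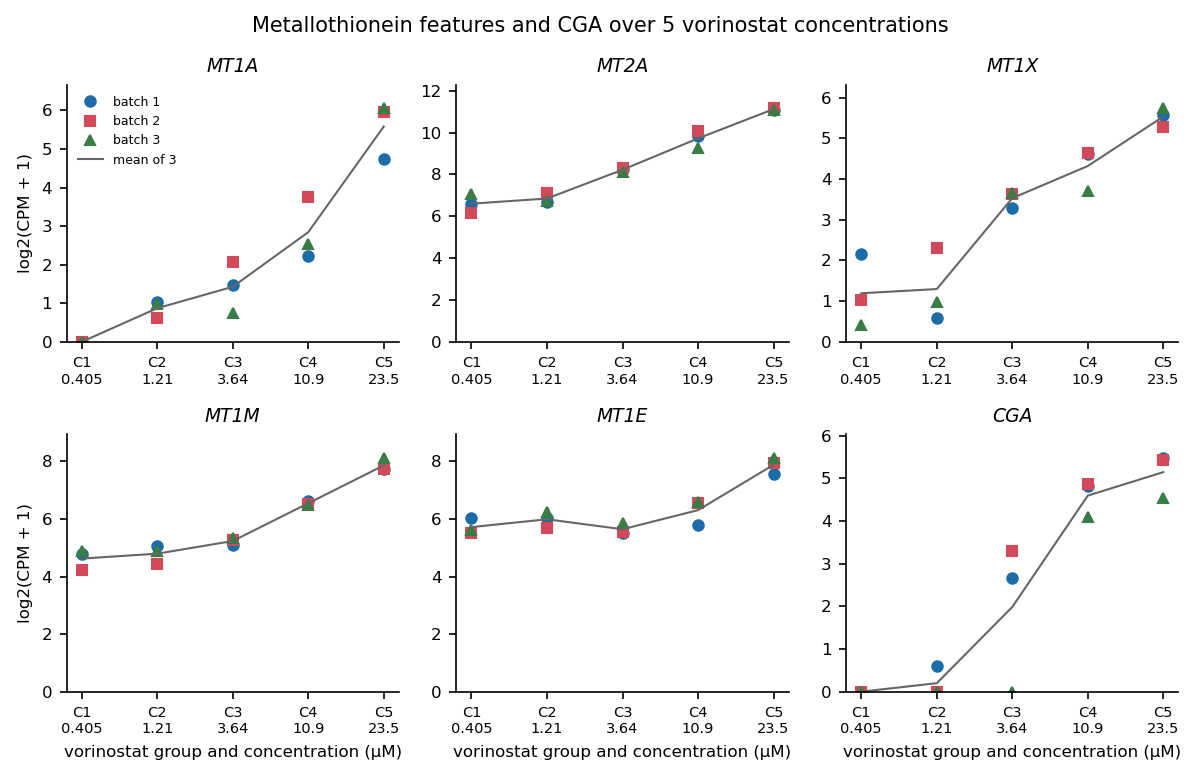
Each panel shows the log2 of CPM plus 1 in every library (circles, squares and triangles for batches 1, 2 and 3) over the 5 vorinostat groups, with their concentrations in µM, and a gray line through the mean of the 3 libraries. The 5 metallothionein features were highest at C5, and CGA had no count at C1.

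CGA encodes the alpha subunit that the glycoprotein hormones share and is normally made in the pituitary and placenta. It had 0 counts in the C1 libraries and 43.8, 41.9 and 22.2 CPM in the C5 libraries, at least 31.1-fold higher (adjusted p = 5.57e-09). Its mean was already 4.72 CPM at C3 and 23.9 CPM at C4, and C5 did not pass the test against C4 (log2 change 0.60, adjusted p = 0.448). Its promoter is known for a repeated cyclic AMP response element, and the letters TGACGTCA (the same on both strands) are in capitals in the 250 bases before its start (minus strand of chromosome 6).
CGA, chr6:87095107-87095356: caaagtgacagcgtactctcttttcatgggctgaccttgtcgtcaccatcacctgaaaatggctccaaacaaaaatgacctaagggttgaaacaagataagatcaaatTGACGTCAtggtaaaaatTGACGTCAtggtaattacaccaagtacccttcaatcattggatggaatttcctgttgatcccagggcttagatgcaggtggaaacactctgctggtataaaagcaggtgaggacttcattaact
There were 2 copies of TGACGTCA in it, and 0.0544% of all promoters of this length held at least 2.

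Other genes that are not typical of liver also went from no or few counts to a measured level. CALB1, a calcium-binding protein of neurons and kidney, had 0 counts at C1 and 16.4, 7.33 and 76.9 CPM at C5, at least 29.1-fold higher (adjusted p = 1.16e-06). Its C5 libraries differed among themselves, with batch 3 the highest. SYT11, a synaptotagmin of vesicle traffic, had 0 counts at C1 and 27.3, 31.4 and 33.3 CPM at C5, at least 26.5-fold higher, with the libraries close together. The noncoding LOC339862 likewise had 0 counts at C1 and 32.8, 20.9 and 30.6 CPM at C5, at least 24.4-fold higher. For PRR20G, MORN5, GPR50 and TMEM59L the 3 C1 libraries held 1 to 3 counts in all. GPR50, an orphan receptor related to melatonin receptors, had 8.20, 33.0 and 37.8 CPM at C5, a ratio of 249-fold (95% counting interval 43.9 to 9916). The ratio was 295-fold (95% counting interval 52.2 to 11733) for MORN5 and 121-fold (95% counting interval 40.9 to 594) for TMEM59L. It was 314-fold (95% counting interval 55.6 to 12490.0) for PRR20G, where the C5 libraries ran from 6.38 to 78.9 CPM. TNFAIP6, a hyaluronan-binding protein induced by inflammatory signals, rose from 0.556 ± 0.575 to 37.0 ± 9.23 CPM.

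Neuronal genes that the repressor REST keeps silent in liver were examined as a list. Of 58 features on the panel only 12 passed the filter on low counts, and 8 of those were called higher and 1 lower. A silent gene passes that filter mainly by being expressed at the higher concentrations, so these counts are a description. STX1A, a syntaxin of the synaptic release machinery, rose from 1.72, 1.56 and 0.643 CPM to 59.3, 86.3 and 56.1 CPM (log2 change 5.68, SE 0.51, adjusted p = 3.42e-11). NEFL, the light neurofilament chain, had 0 counts at C1 and 5.47, 6.80 and 14.3 CPM at C5, at least 7.68-fold higher. GPRASP1, which sorts receptors for degradation, fell from 40.8 ± 5.89 to 5.21 ± 5.57 CPM. Of 49 cancer-testis and germ line features, 13 were tested, with 4 called higher (22.7% of all features were) and none lower. At most 3 counts in each of the 6 libraries were found for 29 of the 49, so the same limit of the filter holds. SPANXB1 was among those called higher (48.3 ± 9.72 to 173 ± 16.7 CPM). HBG1, a fetal globin chain whose gene is near-identical to HBG2, rose from 2.30, 1.56 and 0.964 CPM to 32.8, 35.6 and 56.7 CPM. Its mean was 46.0 CPM at C4 and 41.7 CPM at C5.

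Among the deacetylases themselves, HDAC3 and HDAC2 rose and HDAC6 fell. HDAC3, the catalytic subunit of the NCoR and SMRT corepressor complexes, was at 49.4, 35.8 and 73.6 CPM at C1 and 257, 258 and 262 CPM at C5. The C5 libraries were almost equal and well above C1 (log2 change 2.29, SE 0.22, adjusted p = 2.09e-10). HDAC2, found in the Sin3, NuRD and CoREST complexes, rose from 300.4, 290.5 and 275 CPM to 561, 592 and 771 CPM, a log2 change of 1.15 (SE 0.14). Its close relative HDAC1 was at 20.1, 25.2 and 50.5 CPM and 25.5, 16.7 and 33.9 CPM, and the groups overlapped (adjusted p = 0.453). HDAC6, a cytoplasmic deacetylase that acts on tubulin, had 4 features tested. Feature HDAC6_90749 fell from 745, 949 and 668 CPM to 325, 393 and 322 CPM, by 1.18 on the log2 scale. Features HDAC6_91641 and HDAC6_91698 were called lower with adjusted p = 0.00725 and 0.0333. The groups overlapped for the former, and both calls were lost when 1 or more libraries were left out (without batch 1 in any group, adjusted p = 0.137 and 0.132). Feature HDAC6_91428 had an adjusted p of 0.332. Over all 11 deacetylases, 2 of 15 features tested were called higher and 3 lower (22.7% and 24.9% of all features tested were).

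**Figure D3:**
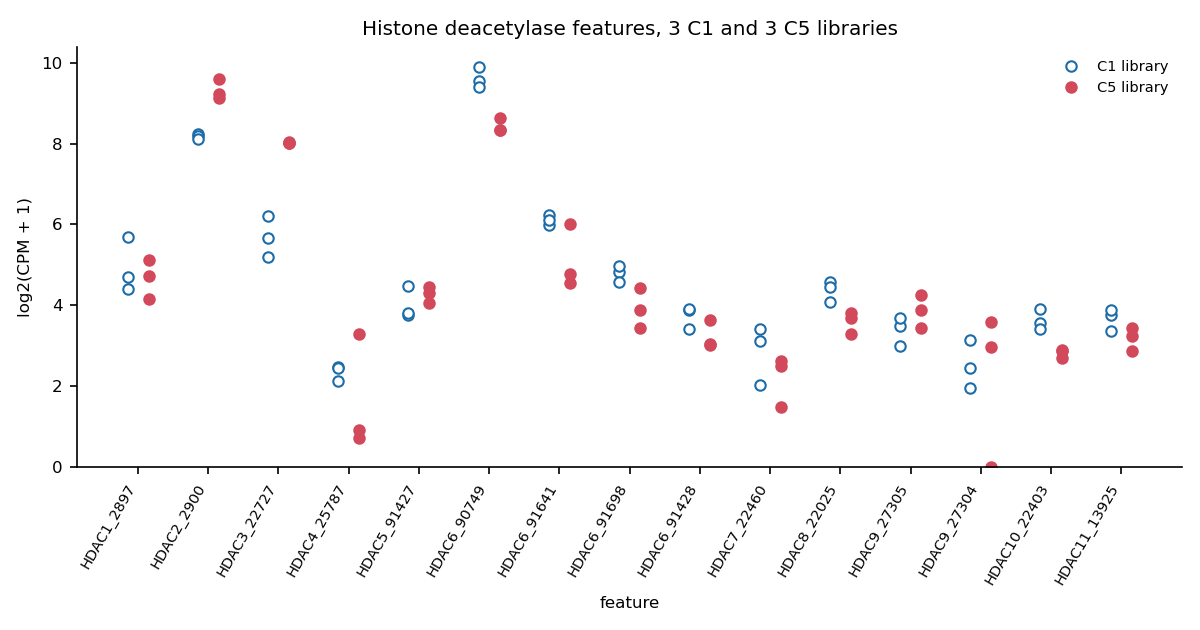
Each feature of HDAC1 to HDAC11 that was tested is shown on the horizontal axis, with the log2 of CPM plus 1 in the 3 C1 libraries (open blue) and the 3 C5 libraries (filled red). The groups are separate for HDAC2, HDAC3 and the strongest HDAC6 feature, and they overlap for HDAC1.

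Subunits of the corepressor complexes were called higher in 16 of 36 features and lower in 5 (22.7% and 24.9% of all features were). Their median log2 change was 0.814, but -0.0217 without the filter on low counts, so no direction is given. SAP30L, a Sin3 subunit, rose from 42.4 ± 6.24 to 162 ± 7.77 CPM. CHD3, a NuRD remodeler, fell from 63.1 ± 3.57 to 13.7 ± 6.73 CPM. Of the acetyltransferases 5 of 22 features were called higher and 6 lower, close to the shares over all features tested (22.7% and 24.9%). KAT6A rose from 51.0 ± 12.4 to 149 ± 35.8 CPM and NCOA2, a nuclear receptor coactivator, fell from 299 ± 24.0 to 48.6 ± 11.1 CPM. None of the 8 features of acetyl-lysine readers and HEXIM1 was called, against 47.5% of all features tested. Of the Polycomb and lysine methylation list, 16 of 54 were called higher and 9 lower, against 22.7% and 24.9% of all features. RING1, a Polycomb ubiquitin ligase, rose from 484, 446 and 437 CPM to 1332, 1479.8 and 1687 CPM. Of histones made outside of S phase, 2 of 9 features were called higher and 3 lower, which on so few features is near the 22.7% and 24.9% of all features. H1F0, a linker histone of resting cells, rose from 10.3, 8.57 and 8.36 CPM to 31.9, 23.0 and 16.3 CPM (adjusted p = 0.00673). H2AFX, the variant phosphorylated at DNA breaks, fell from 458 ± 68.5 to 228 ± 68.0 CPM.

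Genes that hepatocytes express for export fell widely. All 11 hepatocyte marker features were called lower. Of 46 features for plasma carriers and other secreted liver proteins, 40 were called lower (24.9% of all features were) and none higher, with a median log2 change of -3.68 (-3.36 with features at 0 counts set to their bound). ALB, the main plasma protein, was at 18837, 23046 and 16570.0 CPM at C1 and 2789.5, 2846 and 1640.1 CPM at C5. The log2 change was -3.01 (SE 0.19, adjusted p = 1.1e-14). Among the C5 libraries batch 3 was the lowest, as it also was for HP, SERPINA1, TTR, the fibrinogen chains and APOB below. HP, the hemoglobin scavenger haptoglobin, fell further, from 11378, 15202 and 12403 CPM to 421, 373 and 196 CPM, a log2 change of -5.30 (SE 0.23). SERPINA1, the elastase inhibitor of plasma, fell from 5933 ± 624 to 1035 ± 228 CPM. TTR, a carrier of thyroid hormone and retinol-binding protein, fell least of these, with a log2 change of -1.72 (SE 0.19), and its course was not monotonic. Its mean was 5849 CPM at C1, 8270.1 CPM at C3, 5151 CPM at C4 and 1777 CPM at C5. LEAP2, a peptide that blocks the ghrelin receptor, was at 203, 203 and 155 CPM at C1 and 3.65, 3.66 and 0.652 CPM at C5 in feature LEAP2_28319, and its other feature had 0 counts in the C5 libraries (at least 10.4-fold lower). The growth factor IGF1 had 7.47, 27.5 and 18.6 CPM at C1 and 0 counts in all C5 libraries, at least 8.57-fold lower.

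**Figure D4:**
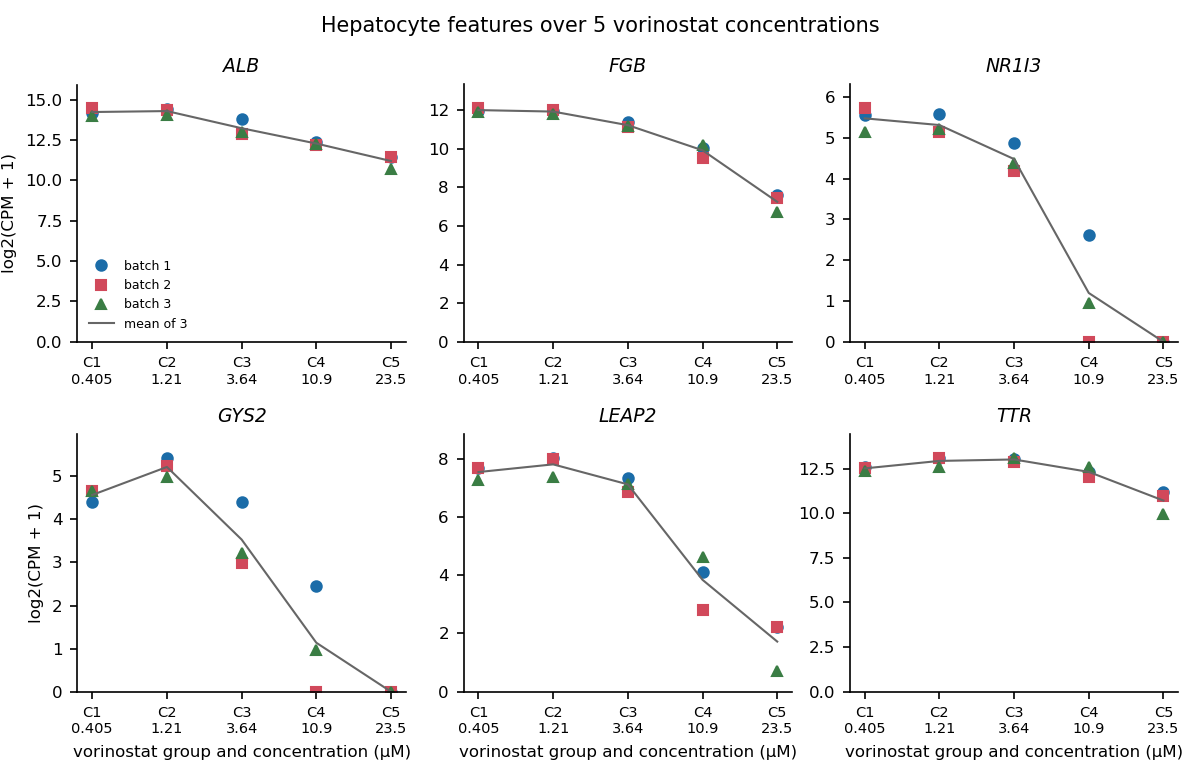
Each panel shows the log2 of CPM plus 1 in every library over the 5 vorinostat groups, with markers and line as in the plot of the metallothionein features. NR1I3 and GYS2 had no count in the 3 C5 libraries, and TTR was higher at C2 and C3 than at C1 before it fell.

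Clotting and complement factors fell with them. Of 31 coagulation features, 22 were called lower and 2 higher, and both of the latter were TFPI2. FGA, a chain of fibrinogen, was at 6816, 10483 and 7364 CPM at C1 and 395, 266 and 171 CPM at C5, a log2 change of -4.90 (SE 0.21). FGB fell from 3985, 4438 and 3897 CPM to 191, 173 and 105 CPM, and FGG from 4344, 5231 and 4969 CPM to 511, 409 and 247 CPM. Factor IX (F9) fell from 90.6 ± 5.02 to 1.30 ± 0.568 CPM. TFPI2, a matrix-bound inhibitor of plasmin and other serine proteases, went the other way, from 33.9, 33.7 and 39.5 CPM to 847, 992 and 961 CPM in feature TFPI2_17184 (log2 change 4.70, SE 0.24, adjusted p = 2.23e-17). Of 33 complement features, 27 were called lower and 5 higher. Those called higher were 2 features of CLU, which is clusterin, and the membrane regulators CD46, CD55 and CD59, of which CD46 and CD59 were named after their values were seen. Of 20 apolipoprotein and lipoprotein features, 17 were called lower and none higher. APOB, the structural protein of very low density lipoprotein, fell from 3519.7, 3410.4 and 3221 CPM to 116, 86.3 and 48.3 CPM, a log2 change of -5.36 (SE 0.22).

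Transcription factors that maintain hepatocytes fell in part. Of 20 features, 10 were called lower and 2 higher. HNF4A, the nuclear receptor that defines hepatocyte identity, was at 21.2, 11.4 and 26.4 CPM at C1 and 4.56, 0 and 0 CPM at C5 (adjusted p = 0.000151), so its C5 counts came from batch 1 alone. ONECUT1 (HNF6) fell to a total of 1 count at C5 in feature ONECUT1_15460, a ratio of C1 over C5 of 32.3-fold (95% counting interval 5.60 to 1298), while its relative ONECUT2 rose from 6.71 ± 3.10 to 28.9 ± 14.4 CPM. Nuclear receptors were called lower in 12 of 28 features and higher in 5. The median log2 change of this list was -0.402, but 0.0201 among features with a mean of at least 50 counts, so no direction is given. NR1I3, the constitutive androstane receptor that induces drug-metabolizing enzymes, had 45.9, 52.2 and 34.4 CPM at C1 and 0 counts in every C5 library, at least 21.2-fold lower (adjusted p = 6.8e-10). NR1I2, the pregnane X receptor, had 16.1, 15.1 and 16.7 CPM at C1 and 0 counts at C5 in feature NR1I2_12051, at least 7.64-fold lower. Its other feature, NR1I2_4673, was still counted at C5 in 2 of 3 libraries. AHR, the dioxin receptor, rose from 48.9 ± 13.7 to 106 ± 17.7 CPM.

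Enzymes and transporters of drug metabolism had more falls than rises in each family examined. Cytochromes P450 were called lower in 16 of 34 features and higher in 4. CYP3A4, which oxidizes many drugs, was at 221, 215 and 142 CPM at C1 and 0, 9.42 and 1.96 CPM at C5 in feature CYP3A4_88797, and its weaker feature had 0 counts in the C5 libraries (at least 9.19-fold lower). CYP1A1, an AHR target, had a feature that rose from a total of 2 counts at C1, but its stronger feature, CYP1A1_10775, was at 15.9 ± 4.76 CPM at C1 and 13.5 ± 5.49 CPM at C5. That feature had its highest mean at C3, 104 CPM, and was lower at C5 than at C4 (log2 change -2.19, adjusted p = 6.11e-05). Conjugating enzymes were called lower in 35 of 44 features (median -3.08, or -2.86 with bounds) and higher in 3. The acyltransferase GLYAT, which joins glycine to benzoate, fell from 159 ± 44.5 to 0.913 ± 0.390 CPM. TPMT, which methylates thiopurine drugs, rose from 0, 0.779 and 1.29 CPM to 21.9, 25.1 and 22.2 CPM. Hepatic transporters were called lower in 28 of 36 features and higher in 2. AQP9, the glycerol channel of hepatocytes, was at 117, 121 and 106 CPM at C1 and a total of 2 counts at C5, a ratio of C1 over C5 of 261-fold (95% counting interval 72.0 to 2155). ABCC2, the canalicular pump of conjugated bilirubin, fell in both features, from 259.6, 262 and 169.7 CPM to 6.38, 9.42 and 1.96 CPM in ABCC2_22. In bile acid synthesis 11 of 16 features were called lower. BAAT, which conjugates bile acids to taurine or glycine, fell from 1167, 1443 and 1191 CPM to 21.9, 17.3 and 18.9 CPM. CYP7A1, the rate-limiting enzyme of the classic pathway, fell from 51.7 ± 16.3 to 1.30 ± 1.24 CPM, and its mean at C4 was 0.481 CPM.

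Lists of liver metabolism had more features called lower than higher. In the urea cycle and amino acid list 40 of 57 features were called lower and 2 higher. AGXT, which clears glyoxylate in peroxisomes, fell from 632, 771 and 546 CPM to 4.56, 2.62 and 3.91 CPM. ARG2, the mitochondrial arginase of tissues outside the liver, rose from 10.3, 3.63 and 7.07 CPM to 139, 109 and 132 CPM, a log2 change of 4.27 (SE 0.36). Fatty acid oxidation and ketogenesis had 21 of 39 features called lower. Lipid synthesis and droplet genes had 17 of 30 called lower, among them the fatty acid synthase FASN (396 ± 42.7 to 39.7 ± 11.1 CPM). FABP4, the fatty acid binding protein of fat cells, rose from 2.72 ± 0.828 to 64.9 ± 3.16 CPM. Cholesterol synthesis had 19 of 29 called lower and 1 higher, with a median of -1.13. HMGCS1, which makes the substrate of the statin target, fell from 694, 741 and 742 CPM to 79.3, 74.8 and 91.9 CPM, and INSIG2, which holds back the pathway, rose from 374 ± 33.5 to 796 ± 46.7 CPM. Glucose and glycogen genes were called lower in 10 of 33 features and higher in 5, against 24.9% and 22.7% of all features. The summed level of the list was higher at C5, 5313 to 5815 CPM per library against 3951 to 4061 CPM at C1. GYS2, the liver glycogen synthase, had 20.1, 24.1 and 24.1 CPM at C1 and 0 counts in the C5 libraries, at least 10.9-fold lower, while PKM, a pyruvate kinase that adult hepatocytes hardly use, rose from 754, 740.3 and 783 CPM to 2192, 2389.7 and 2562 CPM. Iron and heme genes had 11 of 22 features called lower and 2 higher. CP, the plasma ferroxidase ceruloplasmin, fell from 90.2, 103 and 107 CPM to 1.82, 1.05 and 0 CPM, and CPOX, an enzyme of heme synthesis, rose from 6.37 ± 2.89 to 23.1 ± 9.30 CPM. SLC39A5, a zinc importer, had 12.1, 21.3 and 15.1 CPM at C1 and 0 counts at C5, at least 7.74-fold lower. The glutamate receptor subunit GRIA3 had 17.8, 23.4 and 9.32 CPM and 0 counts, at least 8.06-fold lower.

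Cell cycle genes fell without exception among the calls. Of 41 features, 32 were called lower and none higher, with a median log2 change of -2.31 (-2.27 with bounds). TYMS, which makes thymidylate for DNA synthesis, was at 879, 897 and 941 CPM at C1 and 41.9, 35.1 and 54.1 CPM at C5. KIF20A, a kinesin of cytokinesis, fell from 60.4 ± 7.01 to 2.78 ± 2.06 CPM. POLE2, a subunit of the leading-strand DNA polymerase, had 12.6, 17.7 and 21.9 CPM at C1 and 0 counts at C5, at least 8.33-fold lower. In the list of CDK inhibitors and D cyclins 4 of 13 features were called lower and 2 higher, against 24.9% and 22.7% of all features. The median log2 change of this list was -0.54, but 0.56 among features with a mean of at least 50 counts, so no direction is given. CCND3, cyclin D3, rose from 8.61, 11.2 and 7.39 CPM to 28.3, 24.6 and 22.2 CPM, and RBL1, a relative of the retinoblastoma protein, fell from 44.6 ± 9.87 to 5.78 ± 0.583 CPM. The inhibitor CDKN1A, a well-known gene raised by deacetylase inhibitors, had 0 to 5 counts per library at C1 and 3 to 22 at C5, did not pass the filter and was not tested.

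MDM2, the ubiquitin ligase that degrades p53 and is itself a p53 target, fell in all 3 of its features. The strongest, MDM2_23384, went from 5019.7, 5187 and 5047 CPM to 549.7, 537 and 509 CPM, a log2 change of -3.26 (SE 0.15), and its replicates differed little. In the p53 target list 19 of 32 features were called lower and 1 higher. Among genes of the BCL2 family and apoptosis, 15 of 38 were called lower and 7 higher, against 24.9% and 22.7% of all features. BIRC3, an inhibitor of apoptosis that NF-κB induces, rose from 423, 428 and 374 CPM to 3014, 3096 and 3032 CPM (log2 change 2.90, SE 0.16). BCL2L11, the death-promoting protein BIM, rose in 2 of 3 features, and BCL2L11_26447 went from 16.6 ± 1.70 to 92.3 ± 14.0 CPM. BID, another death-promoting member, had 10.9, 19.5 and 15.1 CPM at C1 and 0 counts at C5 in feature BID_696, at least 7.27-fold lower, and its second feature was called lower too.

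Stress pathways did not move as blocks. In the NRF2 target list 8 of 39 features were called higher and 18 lower (22.7% and 24.9% of all features were). SRXN1, which repairs oxidized peroxiredoxins, rose from 156, 136 and 168 CPM to 1026, 1158 and 1119.7 CPM. GCLC, the catalytic subunit of the first enzyme of glutathione synthesis, rose from 114, 103 and 139.8 CPM to 401, 490.3 and 485 CPM. GPX2, a glutathione peroxidase of epithelia, fell from 29.9, 39.7 and 57.2 CPM to 0.912, 1.05 and 3.26 CPM. NQO1, a standard NRF2 target that was chosen after its values were seen, fell in both of its features, from 27.1 ± 6.53 to 7.66 ± 4.96 CPM in NQO1_26473. Heat shock chaperones had 10 of 31 features (32.3%) called higher and 3 (9.68%) lower. HSPA1B, an inducible HSP70 gene near-identical to HSPA1A, rose from 27.9 ± 10.3 to 119.9 ± 33.8 CPM. Of the integrated and endoplasmic reticulum stress list, 9 of 31 features (29.0%) were called lower, near the 24.9% of all features, and 2 (6.45%) higher. TRIB3, a target of the stress factors ATF4 and CHOP, fell from 211 ± 23.3 to 52.9 ± 2.99 CPM.

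Inflammatory genes moved in both directions. Of 17 chemokine and cytokine features, 5 were called higher and 7 lower, against 22.7% and 24.9% of all features. CCL20, which attracts CCR6-bearing lymphocytes, rose from 5.74, 3.12 and 2.89 CPM to 139, 194 and 125 CPM, a log2 change of 5.37 (SE 0.37). LCN2, an iron-sequestering acute-phase protein, rose from 64.9, 72.2 and 52.4 CPM to 775, 816 and 719 CPM. CXCL2, which attracts neutrophils, fell from 559, 687 and 622 CPM to 61.1, 65.9 and 69.8 CPM in feature CXCL2_28232, and the membrane-bound chemokine CX3CL1 from 77.3 ± 9.28 to 5.22 ± 2.87 CPM. The groups were separate for all 4 genes. TNFAIP3, an inhibitor of NF-κB signaling, rose from 3.41 ± 0.501 to 16.5 ± 6.95 CPM. Interferon and antigen presentation genes were called higher in 7 of 37 features and lower in 15. The interferon-induced factor IRF1 rose from 57.4 ± 7.92 to 201 ± 10.7 CPM, and IFI16, a sensor of DNA, fell from 264, 324 and 309 CPM to 49.2, 36.6 and 57.4 CPM. In the S100 family 6 of 13 features were called higher and 4 lower (22.7% and 24.9% of all features were). Features silent at C1 pass the filter on low counts only through the higher concentrations. The median log2 change of the list was 0.679, but -0.664 among features with a mean of at least 50 counts, so no direction is given. S100A7 (psoriasin) was among those called higher, with 0 counts at C1 and 12.8, 7.33 and 13.0 CPM at C5, at least 9.56-fold higher. S100A2 was among the 4 called lower, at 233, 182 and 295 CPM at C1 and 18.2, 15.2 and 13.7 CPM at C5.

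Lists of general cell machinery with mostly higher calls had small median changes, although single members rose further. Cytosolic ribosomal protein features were called higher in 29 of 53 and lower in 2, with a median log2 change of 0.79. The same median lay between 0.75 and 0.87 under the other scalings. RPL26 was at 1294, 1342 and 1641 CPM at C1 and 3402, 3253 and 3444 CPM at C5 in feature RPL26_92919, whereas RPL26_92920 was at 88.8 ± 16.9 and 103 ± 30.3 CPM (adjusted p = 0.462). RPL34 rose from 177 ± 36.5 to 811 ± 336 CPM and RPL21 fell from 242 ± 22.1 to 141 ± 39.9 CPM, and such genes have many processed copies whose reads a probe may share. Proteasome features were called higher in 17 of 38 and none lower, with a median of 0.55, and between 0.52 and 0.64 under the other scalings. PSMD13, a lid subunit, rose from 13.2 ± 5.13 to 45.5 ± 11.8 CPM. Oxidative phosphorylation subunits encoded in the nucleus were called higher in 13 of 47 and lower in 4 (22.7% and 24.9% of all features were). Their median was 0.18, and 30 were not called. Lysosomal protein features were called higher in 9 of 41 and lower in 9, near the 22.7% and 24.9% of all features. Among cathepsins CTSB rose from 204 ± 5.67 to 588 ± 27.5 CPM while CTSO fell from 82.1 ± 6.61 to 22.3 ± 10.0 CPM. MTRNR2L12, whose feature took the most counts at C5 and whose sequence is near-identical to mitochondrial ribosomal RNA, rose from 11804, 10609 and 13670.0 CPM to 19292, 20212 and 22388 CPM. PEG10, an imprinted gene derived from a retrotransposon, rose from 2054, 2250.3 and 1479 CPM to 6532, 6346 and 5924 CPM. PLOD2, a lysyl hydroxylase that sets collagen crosslinks, rose from 179, 202 and 213 CPM to 1744, 1812 and 2083 CPM, a log2 change of 3.24 (SE 0.19). ANXA5, which binds phosphatidylserine, rose in both features, from 549 ± 90.7 to 1923 ± 118 CPM in ANXA5_14212.

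Among cytoskeletal, junction and matrix genes, 45.5% of junction and 44.1% of matrix glycoprotein features were called lower, against 24.9% of all features tested. Tubulins and microtubule proteins had 9 of 22 features called higher and 3 lower. The median log2 change of this list was 0.696, but -0.0557 among features with a mean of at least 50 counts, so no direction is given. TUBA1A, an alpha tubulin of neurons, was called higher, at 0, 0.519 and 0.643 CPM at C1 and 0, 19.9 and 36.5 CPM at C5, and the groups overlapped because the C5 library of batch 1 had no count. TUBA1B, the alpha tubulin of most cells, fell from 87.3, 95.0 and 185 CPM to 20.1, 30.3 and 20.2 CPM. Its groups were separate. Tubulin genes are close in sequence, and how far a probe reads a relative is not known here. Actin-binding and smooth muscle genes had 8 of 30 called lower (24.9% of all features were), among them gelsolin (GSN, 502 ± 10.2 to 100.2 ± 9.84 CPM), and 3 higher. Of the junction and mesenchymal list 10 of 22 features were called lower and 1 higher. GJB1, the main connexin of hepatocytes, fell from 204, 190.3 and 179 CPM to 1.82, 3.14 and 2.61 CPM (log2 change -6.15, SE 0.49). The epithelial cadherin CDH1 fell from 18.4 ± 5.22 to 2.08 ± 1.88 CPM. CXADR, a tight junction protein that serves as a virus receptor, rose from 45.4 ± 2.26 to 87.1 ± 11.5 CPM. Collagens had 4 of 19 features called higher and 5 lower, near the shares over all features (22.7% and 24.9%), with COL12A1 going from 145 ± 19.1 to 334 ± 41.9 CPM and COL18A1 from 254 ± 36.8 to 41.3 ± 9.98 CPM. Matrix glycoproteins and their proteases had 15 of 34 called lower and 6 higher. MMP7, an epithelial protease of matrix proteins, fell from 219, 139 and 145 CPM to 29.2, 13.1 and 13.7 CPM. CCN1, a matrix protein induced by the YAP pathway, rose from 9.76, 6.49 and 3.54 CPM to 63.8, 43.4 and 44.3 CPM, and CCN2 rose from 26.7 ± 3.87 to 116 ± 18.5 CPM. In the biliary and progenitor list 3 of 11 features were called higher and 2 lower, against 22.7% and 24.9% of all features. The summed level of the list was 814 to 831 CPM per library at C1 and 636 to 644 CPM at C5. SOX9, a progenitor factor, rose from 24.4 ± 4.02 to 51.2 ± 5.38 CPM and NCAM1, an adhesion molecule, from 48.8 ± 10.6 to 219 ± 29.5 CPM. ANXA4 fell from 191 ± 34.3 to 40.3 ± 17.1 CPM and BICC1 from 361 ± 31.9 to 139 ± 6.70 CPM.

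**Figure D5:**
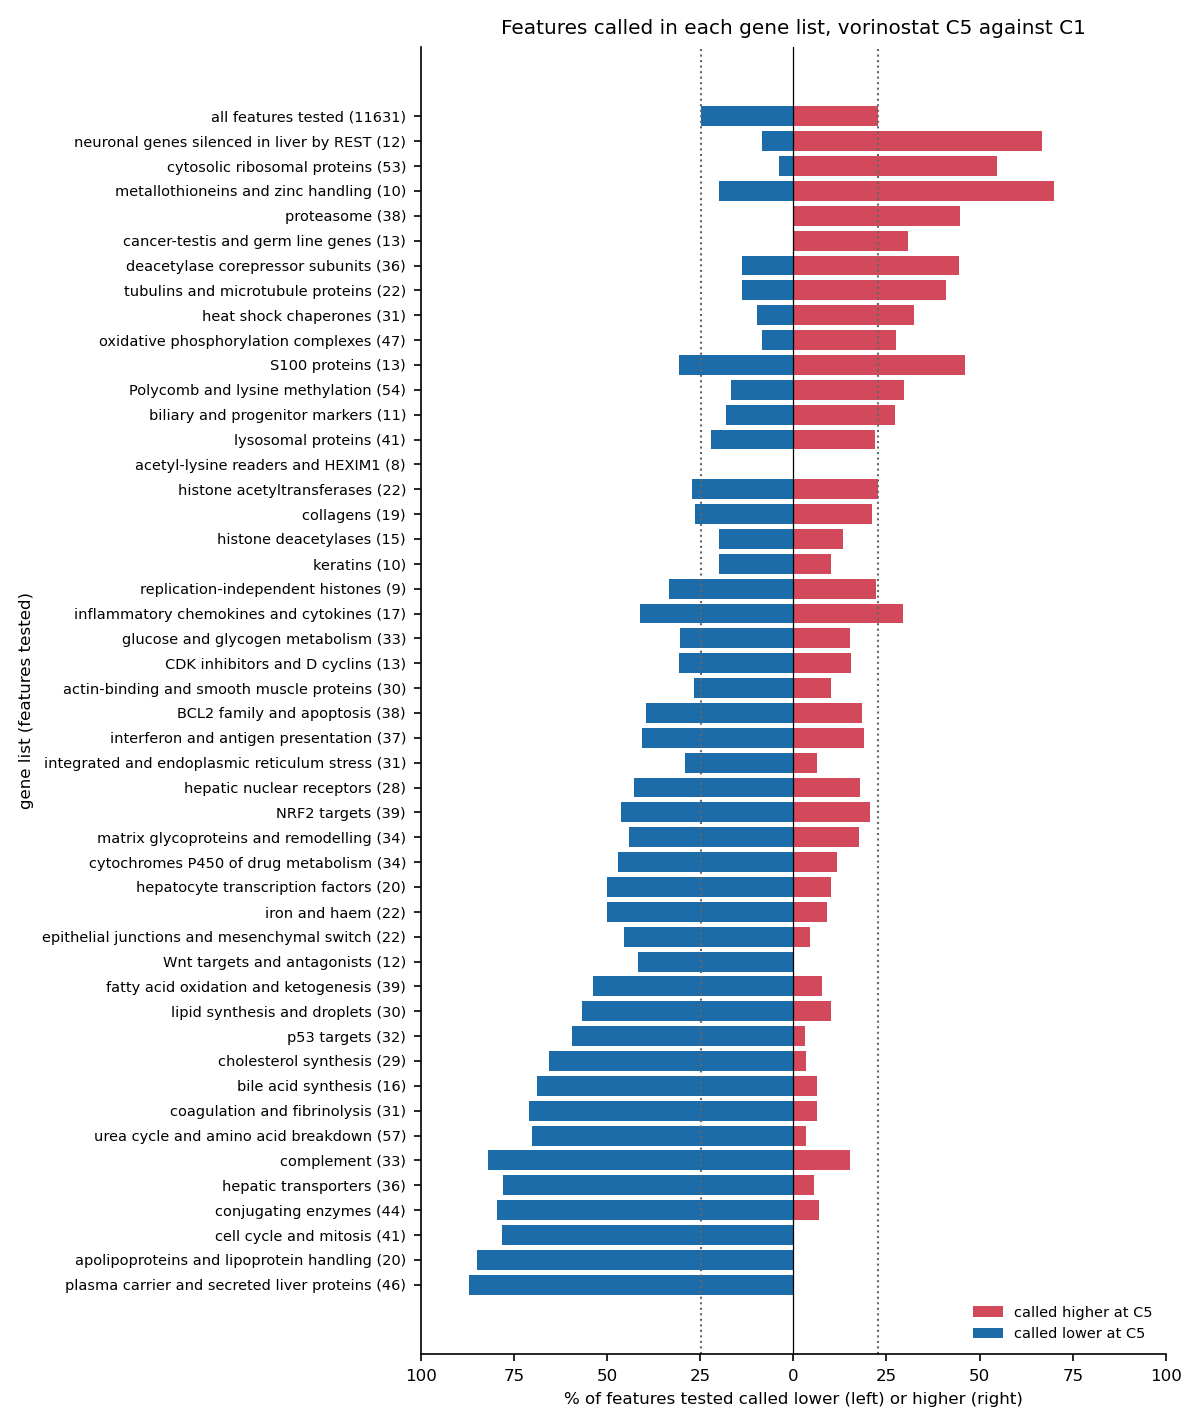
Bars give, for each gene list with at least 5 features tested (number in parentheses), the percentage called lower (blue, to the left) and higher (red, to the right) at C5, and dotted lines mark the percentages over all features tested, 24.9% and 22.7%. The lists of plasma proteins, apolipoproteins, cell cycle and Wnt genes had calls to the left alone, and those of proteasome and cancer-testis genes to the right alone.

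The step from C4, the next lower concentration (10.9 µM), to C5 was tested by itself. Of 11631 features, 1940 (16.7%) were called between C5 and C4, 689 (5.92%) higher and 1251 (10.8%) lower at C5. For the 2636 features called higher, the median log2 change against C1 was 0.08 at C2, 0.35 at C3, 0.83 at C4 and 1.25 at C5. For the 2893 called lower it was -0.07, -0.34, -0.95 and -1.70. These medians share the C1 libraries, and the features were chosen by the change at C5. The fall of secreted liver proteins went on between C4 and C5, with 23 of 46 features called lower at C5 than at C4 and none higher. The log2 change over that step was -3.23 for APOB (adjusted p = 1.98e-13) and -2.93 for FGA (adjusted p = 5.11e-13). Cytochromes P450 were called lower in 13 of 34 features and higher in 1, and conjugating enzymes lower in 27 of 44 and higher in 2. BAAT, at 27.7 CPM at C4 and 19.4 CPM at C5, did not pass (log2 change -0.61, adjusted p = 0.229), nor did HDAC2 (log2 change 0.33, adjusted p = 0.0767). Proteasome and ribosomal protein lists each had 1 feature called higher over the step. GCLC belonged to the genes that rose between C4 and C5, from a mean of 117 to 459 CPM, with 91.7 CPM at C3. MT2A rose by 1.36 (SE 0.18) over the step, SRXN1 by 1.42 (SE 0.14), CCL20 by 2.58 (SE 0.30) and HDAC3 by 1.09 (SE 0.21). The count of calls between C5 and C4 rested in part on batch 3: it was 1223 without its C4 library and 1080 without batch 3 in any group.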

How the data were processed

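RNA in lysates of HepaRG cells was measured with TempO-Seq whole transcriptome probes in 118 libraries of 8 histone deacetylase inhibitors at 5 concentrations. Per the labels, fastp 0.23.2 and STAR 2.7.10b were among the tools applied to the reads, and the genome build is not given in the sources used here. The authors deposited raw counts per probe. The table held 22069 rows, of which 1 (SEC13) lacked a value in part of the libraries and was left out.

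From these counts, edgeR 4.0.16 (R 4.3.3) fitted the 15 vorinostat libraries with 1 coefficient per concentration, after filterByExpr and TMM scaling. Quasi-likelihood F tests compared C5 with C1 and C5 with C4, with Benjamini-Hochberg adjustment over all 11631 features tested. The standard error of a log2 change is its size over the root of F. CPM values are relative to the TMM-scaled library size, and values after ± are SD over the 3 libraries. A bound ("at least") sets each library of a group without counts at 3 counts, and ratios with 1 to 3 counts have an exact binomial 95% interval. Both cover counting error only, since amplified copies were counted without molecular identifiers. Depth was between 1061359 and 4134455 counts per library. In simulated counts without batch effects, 50 features per fold were changed, drawn only from those above a minimum level at C1. Of these, 4-fold rises and falls were recovered in 100% and 96%, and 2-fold ones in 62% and 52%, with 6 false calls among 10822 features tested. The rates do not cover features with few counts at C1, and far more features changed in the data.

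The comparison, gene lists and marker lists were chosen with earlier results of these data known. Named features were the 10 with the largest log2 change in each direction (same sign in all 3 batches, mean of at least 20 counts), the 8 with the largest change of mean CPM, up to 3 per direction in each list, all deacetylases and metallothioneins, H1F0, CDKN1A and cell type markers. They were named without further choice except where the text says otherwise, and further features of a named gene were added. Replicate numbers are HepaRG batches, so they pair the libraries; the median correlation of deviations from the group means was 0.0298 over 30 pairs of libraries of the same batch and -0.00864 over 60 pairs of different batches. Alternatives changed the scaling, filter, depth, libraries in the fit, batch block, call rule and test (DESeq2 1.42.0), and left out libraries and batches in turn. Promoters are from RefSeq (GRCh38.p14). Solvent controls and the other inhibitors were not used here. Some named features are not reported here.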

Additional observations from a re-analysis of the deposited data

How the results depend on the processing

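No feature called between C5 and C1, or between C5 and C4, was called in the opposite direction under any alternative. The number called between C5 and C1 stayed within 1.5 times of 5529, apart from the 1920 lower with a mean of at least 50 counts, where fewer features were tested, and the 1712 higher with a test against a fold change of 1.5. Without scaling factors 2961 were higher and 2644 lower, and the median log2 change of all features shifted by 0.0903. With the HepaRG batch as a replicate block the count was 5508 (15 libraries) or 4904 (the 6 libraries compared), and 1983 between C5 and C4, so the block moved no count by more than 1.5 times. Between C5 and C4, 610 features (96 higher, 514 lower) passed a test against a fold change of 1.5, and 1130 (272 higher) a fold change of at least 2. Leaving out libraries or batches gave 4607 to 5434 features between C5 and C1, 2112 to 2548 of them higher and 2495 to 2886 lower. Between C5 and C4 it gave 1080 to 1936 features, 328 to 666 higher and 752 to 1278 lower. The lowest were those without batch 3, the higher calls were 382 without its C4 library alone and 410 without batch 1, and the cause was not tested. Of 259 named features 57 lost their call under at least 1 alternative and none reversed. Leaving out a single C1 or C5 library moved the fold of 57 named features by over 1.5 times, most of them with few counts in the lower group, and most often (26) it was the C5 library of batch 2. The log2 change of MT1X_4333 was 5.89 without the C1 library of batch 1 (5.05 with all), that of GPRASP1_33843 was -2.32 without the C5 library of batch 2 and -4.52 without that of batch 3 (-3.02), and that of HDAC6_91641 was -1.49 without the C5 library of batch 3 (-0.86). Medians of 14 of 55 lists changed sign under at least 1 alternative, and no direction is given for these lists. Among them were corepressor subunits, acetyltransferases, acetyl-lysine readers, Polycomb and lysine methylation, histones made outside of S phase, nuclear receptors and chemokines. The others were CDK inhibitors and D cyclins, tubulins, collagens, S100 proteins, globins, biliary and progenitor markers and the cholangiocyte markers. Depth limits features near 3 counts per library, which is 0.726 to 2.83 CPM.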

Other observations

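Different features of a gene did not always move together. Of 923 genes with at least 2 features tested, 296 had at least 2 features called, and 7 of these had features called in opposite directions, which were DLC1, DMKN, NDUFB4, PDE4DIP, PNKD, PRR16 and PTBP1. These genes were singled out after their values were seen. DLC1 had a feature (DLC1_27115) at 38.5, 29.6 and 21.9 CPM at C1 and 203, 204 and 209 CPM at C5, and another (DLC1_24699) at 12.1, 14.5 and 9.32 CPM and 5.47, 1.57 and 5.22 CPM. The groups were separate for each. PTBP1, a splicing repressor, fell in feature PTBP1_92339 from 1130.4 ± 77.0 to 534 ± 24.6 CPM (adjusted p = 1.48e-08), and its weaker feature rose from 9.30 ± 1.41 to 19.1 ± 9.72 CPM (adjusted p = 0.0367). PNKD fell from 37.6 ± 0.491 to 5.57 ± 4.27 CPM in PNKD_92689 and rose from 4.98 ± 1.88 to 23.5 ± 9.03 CPM in PNKD_92690. Whether these probes read different transcripts of a gene was not tested.

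Some features peaked between C1 and C5. KRT19, a keratin of biliary cells, had a mean of 28.4 CPM at C1, 65.9 CPM at C4 and 21.9 CPM at C5 in feature KRT19_10816, chosen after its values were seen, and it was lower at C5 than at C4 (log2 change -1.62, adjusted p = 9.4e-05). The monocarboxylate transporter SLC16A12 was at 28.0 CPM at C1, 149 CPM at C4 and 67.2 CPM at C5. Keratins as a list had 1 of 10 features called higher and 2 lower between C5 and C1 (22.7% and 24.9% of all features were). KRT80 rose from 4.64 ± 2.14 to 27.8 ± 2.51 CPM and KRT6A, a keratin of activated epithelia, fell from 30.3 ± 3.44 to 3.40 ± 2.15 CPM. Wnt targets and antagonists had 5 of 12 features called lower and none higher, among them WNT5A (85.4 ± 11.0 to 30.4 ± 5.78 CPM) and RNF43, which removes Wnt receptors from the membrane (22.1 ± 3.07 to 5.09 ± 2.30 CPM). Of the 2 globin features tested, CYGB, an oxygen-binding protein of stellate cells, fell from 115, 86.4 and 109 CPM to 1.82, 11.5 and 2.61 CPM, while HBG1 rose.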
